A study of Homo sapiens with 12 samples.

Results

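The genes of the G1 cyclins, their kinases and the inhibitors of those kinases were followed in triple-negative breast cancer cells exposed to bromodomain inhibitors. The 10 genes were taken by symbol from the 28512 genes measured: CDKN1A, CDKN1B, CDKN1C, CDKN2B, CDKN2C, CDKN2D, CCND1, CCND3, CDK4 and CDK6. The rule names them by their role and uses no measured value, but the choice was made with earlier results of these data known. CCND2, a D-type cyclin gene, and CDKN2A, an INK4 gene, are not among the 10. The established lines were SUM159, MDAMB231 and HCC1806, and their polyadenylated RNA was sequenced after 72 h in JQ1, in GSK2801, in JQ1 plus GSK2801, or in the solvent DMSO. JQ1 displaces BET proteins from acetylated chromatin, and GSK2801 occupies the bromodomains of BAZ2A and BAZ2B. The JQ1 dose, alone and in the combination, was 300 nM for SUM159, 100 nM for MDAMB231 and 500 nM for HCC1806, while GSK2801 was used at 10 µM throughout. HCC1806 grew in RPMI with serum, whereas both other lines grew in DMEM/F12 supplemented with serum, hydrocortisone and insulin. The line, its medium and its dose of JQ1 therefore cannot be told apart. There was 1 library per line and treatment, 12 in all, so each treatment had n = 3 lines and no repeat culture of any line.

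D-type cyclins bind CDK4 and CDK6 in G1, and the active complexes phosphorylate RB, which releases the E2F factors that switch on genes for S phase. The INK4 proteins p15, p18 and p19, encoded by CDKN2B, CDKN2C and CDKN2D, bind CDK4 and CDK6 and keep them from their cyclins. The CIP/KIP proteins p21, p27 and p57, encoded by CDKN1A, CDKN1B and CDKN1C, inhibit CDK2 complexes and also bind cyclin D complexes. Cyclin D1 is often amplified or overexpressed in breast cancer, and drugs that block CDK4 and CDK6 are used against the hormone receptor-positive form.

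Levels are given in normalized reads, the deposited values, in which the authors' scaling gives every library the same upper quartile. Differences are log2 ratios of the value plus 1, and fitted changes are means over the 3 lines with their standard error (SE) from limma, a linear model fitted to all 14232 genes with a mean of at least 10 normalized reads. A gene passed when its p, adjusted over those genes by the Benjamini-Hochberg method, was below 0.05. These p-values measure the spread between lines, and they may be too small, because libraries with JQ1 from 1 line carry the same response of that line. Depth ranged over the libraries between 24193692 and 46802137 estimated reads, and 15766 to 16797 genes were above 0 in each. HEXIM1, an inhibitor of the elongation factor P-TEFb that is widely used as a marker of BET inhibition, was at 6270 to 7082 with JQ1, 2532 to 3119 with GSK2801, 8566 to 9756 with both and 2510 to 3018 with DMSO. In bulk RNA, fewer cells that express a gene and less of its RNA per cell cannot be told apart. All 8 breast epithelial markers were above 0 in at least 1 library of each line, but KRT19 was at 0 in a SUM159 library, KRT5 and KRT14 were at 0 in MDAMB231 libraries, EPCAM was at 7.87 or less in SUM159, and CDH1 at 33.2 or less in SUM159 and 30.01 or less in MDAMB231, against at least 11491 and 14154 in HCC1806. PGR was at 0 in SUM159 and HCC1806, and HBB was at 0 in all 12 libraries. Other genes of the receptor list and of the blood and endothelial list were present. ERBB2 was at 3084 to 4142 in SUM159, 1749 to 2335 in MDAMB231 and 4325 to 6456 in HCC1806. ESR1 was at 102 to 138 in HCC1806. CD68 was at 600 to 1349 in SUM159, 3128 to 8767 in MDAMB231 and 344 to 1273 in HCC1806. In SUM159 PECAM1 was at 227 to 1145 and PTPRC at 2.8 to 422. The summed epithelial markers were at 9104 to 9212 with JQ1 and 6178 to 7046 without it in SUM159, at 27193 to 35802 with JQ1 and 17035 to 20738 without it in MDAMB231, and at 172445 to 218539 with JQ1 and 126453 to 134375 without it in HCC1806. These sums follow the highest markers. In HCC1806 KRT18, KRT8, KRT19 and CDH1 were higher with JQ1 than with DMSO. KRT5 (11269 against 32771), KRT17 (13.5 against 166.7), KRT14 (1.1 against 57.1) and EPCAM (11491.5 against 14289) were lower there. Over the lines, the median log2 change of the 8 markers with JQ1 against DMSO was −1.05. Of them, 1 passed higher and 0 lower, where 9.52% and 13.1% of all genes did. Of 9 fibroblast and adipocyte markers, 8 were above 0 in SUM159 with JQ1, with ADIPOQ at 0, and their sum there was 12268 to 20920 with JQ1 and 46137 to 52889 without it. In MDAMB231 that sum was 214 to 273 with JQ1 and 227 to 236 without it, and in HCC1806 396 to 602 with JQ1 and 381 to 411 without it. The part of these markers in the changes below was not tested.

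Promoter windows are printed for the 4 members whose mean over the lines passed in at least 1 comparison of treatments, so that the sequence ahead of the genes that moved can be seen beside their values. Each is the run of 250 bases just before a RefSeq transcript start on GRCh38.p14, read 5′ to 3′ on the gene's strand, with matches in capitals. The motifs searched on both strands were CACGTG, the E-box recognised by MYC with MAX, which reads the same on either strand, and GGGCGG, the GC box recognised by SP1, whose reverse strand reads CCGCCC. Copies that overlap were counted separately.
CDKN1A, chr6:36678464-36678713, plus strand: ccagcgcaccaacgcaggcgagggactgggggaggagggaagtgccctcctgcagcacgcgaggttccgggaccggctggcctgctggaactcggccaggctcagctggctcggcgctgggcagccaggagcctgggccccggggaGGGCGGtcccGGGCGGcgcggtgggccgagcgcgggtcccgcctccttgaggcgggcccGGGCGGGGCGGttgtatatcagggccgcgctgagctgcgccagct
CDKN2D, chr19:10568980-10569229, minus strand: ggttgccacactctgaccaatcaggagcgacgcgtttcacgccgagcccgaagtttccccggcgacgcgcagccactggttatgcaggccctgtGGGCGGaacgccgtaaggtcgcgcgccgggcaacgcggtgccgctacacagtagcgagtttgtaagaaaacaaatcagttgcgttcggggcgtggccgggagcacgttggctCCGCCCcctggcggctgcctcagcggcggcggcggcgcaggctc
CDK4, chr12:57752311-57752560, minus strand: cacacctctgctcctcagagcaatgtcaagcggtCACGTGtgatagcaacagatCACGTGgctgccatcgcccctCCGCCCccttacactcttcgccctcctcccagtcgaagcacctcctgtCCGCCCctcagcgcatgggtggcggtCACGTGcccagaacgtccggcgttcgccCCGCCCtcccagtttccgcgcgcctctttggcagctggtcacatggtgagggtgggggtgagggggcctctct
CDK6, chr7:92836574-92836823, minus strand: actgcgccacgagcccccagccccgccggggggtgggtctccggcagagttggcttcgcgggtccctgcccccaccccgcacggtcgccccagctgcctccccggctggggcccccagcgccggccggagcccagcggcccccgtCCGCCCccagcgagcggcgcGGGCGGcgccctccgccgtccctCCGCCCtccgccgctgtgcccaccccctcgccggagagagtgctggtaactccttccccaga
The CDKN1A window held 4 GC boxes, the CDKN2D window 2, and the CDK6 window 3, none of them with an E-box. The CDK4 window held 3 E-boxes and 3 GC boxes. Over all 35116 RefSeq windows of the same length, 6.34% held at least 1 CACGTG and 42.6% at least 1 GGGCGG. An entry was found for 8 of the 10 members, with 13 windows in all. Outside CDK4, an E-box was found only in CDKN2C, whose windows chr1:50960495-50960744 and chr1:50969995-50970244 held 1 each and whose window chr1:50968456-50968705 held none. CDK6 has a further window, chr7:92833960-92834209, which held neither motif. A match is a string of letters, and binding was not measured.

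JQ1 raised the inhibitor genes CDKN1A and CDKN2D and lowered the kinase gene CDK6, alone and on top of GSK2801, and CDK4 fell in the comparisons with the combination. Each of these calls was lost under at least 1 other setting of the fit, and that of CDK4 against GSK2801 without any single library it compares. Those of CDKN2D and CDK6 with JQ1 against DMSO were also lost without any 1 of several single libraries. GSK2801 moved no member past the threshold. With JQ1 against DMSO, 3 of the 9 members tested passed, 2 higher and 1 lower, where 22.6% of all genes passed, 9.52% higher and 13.1% lower. With the combination against DMSO, 4 of 9 passed, 2 higher and 2 lower, against 34.8% of all genes, 15.0% higher and 19.8% lower. With the combination against GSK2801, 4 of 9 passed, again 2 higher and 2 lower, against 29.0% of all genes, 11.8% higher and 17.2% lower. The members' share is thus close to that of all genes in each comparison, and the results below rest on single genes. The median log2 change of the 9 members was 0.14 with JQ1 against DMSO, −0.09 with the combination against DMSO and −0.09 with the combination against GSK2801, and over all genes it was −0.08, −0.09 and −0.10. The split of all genes that passed depended on the scaling: with JQ1 against DMSO 58.0% of them were lower as deposited, 46.8% after median-ratio rescaling and 45.7% after quantile normalization. With the combination against GSK2801 these shares were 59.2%, 49.0% and 47.6%. The fits of the combination and of JQ1 to DMSO share the DMSO libraries, whereas JQ1 over DMSO and the combination over GSK2801 share no library. Those last 2 ratios give each line 2 readings of JQ1 from separate libraries, 6 in all.

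**Figure D1:**
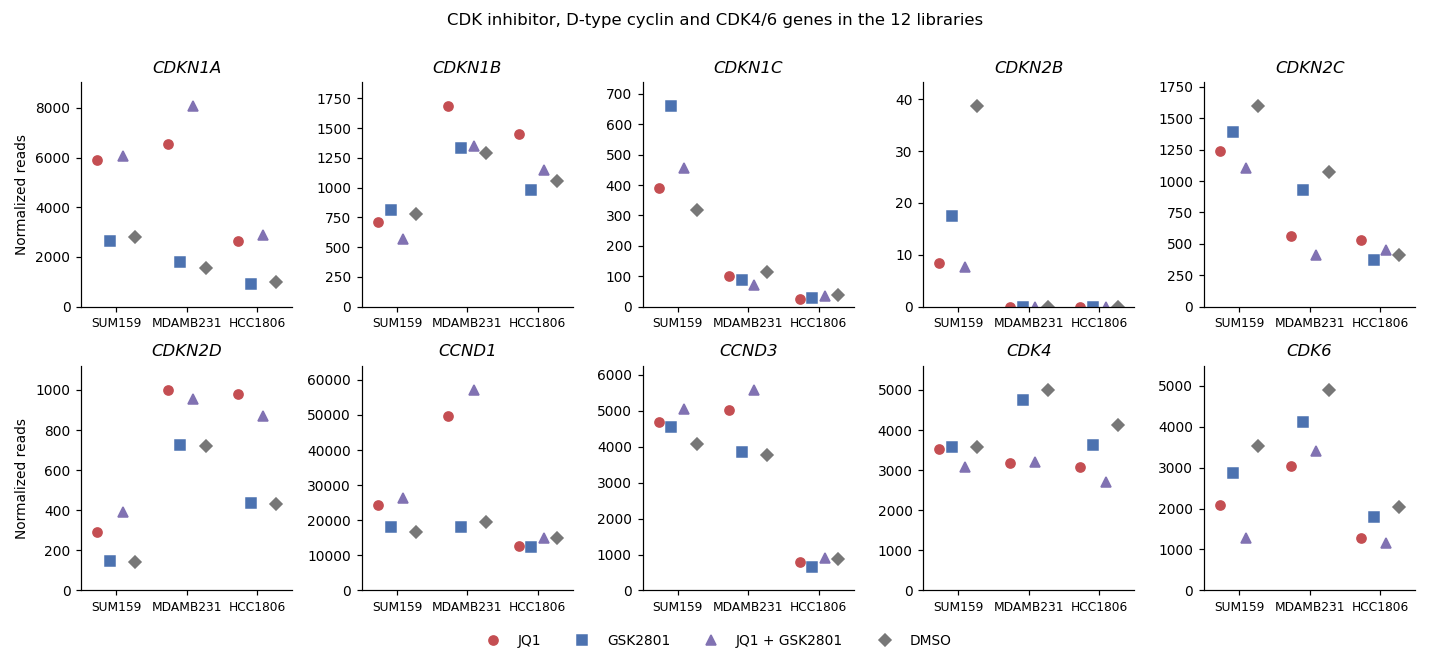
Normalized reads (vertical axes, linear, each gene on its own scale from 0) of the 10 genes in the 12 libraries, grouped by line, with 1 point per library and symbols for JQ1, GSK2801, JQ1 + GSK2801 and DMSO. In every line both JQ1-containing points of CDKN1A and CDKN2D sit above the other points, and both of CDK6 and CDK4 sit below them, while CDKN2B is at 0 outside SUM159.

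CDKN1A (chr6:36676460-36687339, plus strand) encodes p21, a CIP/KIP inhibitor. CDKN1A in SUM159 was at 5903 normalized reads with JQ1, 2651 with GSK2801, 6053 with both and 2816 with DMSO. CDKN1A in MDAMB231 was at 6546 with JQ1, 1789 with GSK2801, 8086 with both and 1552 with DMSO. CDKN1A in HCC1806 was at 2649 with JQ1, 927 with GSK2801, 2900.1 with both and 1003 with DMSO. Within every line the pair of libraries with JQ1 stood clear of the pair without it, and the values of the lines overlapped. CDKN1A rose 2.86-fold with JQ1 against DMSO (log2 1.51 ± 0.21, limma adjusted p = 0.00259) and 3.19-fold with the combination against DMSO (1.67 ± 0.21, adjusted p = 0.000731). Against GSK2801 the combination raised it 3.18-fold (1.67 ± 0.21, adjusted p = 0.00108). The 6 separate readings of JQ1 were all higher, by log2 1.07 to 2.18, a pattern that 16.2% of all genes showed. Without HCC1806 the call for JQ1 alone was lost (1.57, adjusted p = 0.0697), as it was in a test against a change of 1.5-fold (0.0706), and over all 25 alternatives its adjusted p was 0.00198 to 0.646.

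CDKN1B (chr12:12715058-12722371, plus strand) encodes p27, whose protein level is set largely by SCF-SKP2 ubiquitination. CDKN1B in SUM159 was at 708 normalized reads with JQ1, 812 with GSK2801, 567 with both and 778 with DMSO. CDKN1B in MDAMB231 was at 1686 with JQ1, 1331 with GSK2801, 1346 with both and 1293 with DMSO. CDKN1B in HCC1806 was at 1448 with JQ1, 979.6 with GSK2801, 1146 with both and 1052 with DMSO. JQ1 libraries were thus the highest of their line in MDAMB231 and HCC1806 and not in SUM159, where the combination was the lowest. The fitted change with JQ1 against DMSO was 0.24 ± 0.16 and did not pass (adjusted p = 0.317). In each line the combination was below JQ1 alone, by log2 −0.32 in SUM159, −0.33 in MDAMB231 and −0.34 in HCC1806.

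CDKN1C (chr11:2883213-2885773, minus strand) encodes p57, the CIP/KIP gene that is imprinted in humans. CDKN1C in SUM159 was at 389 normalized reads with JQ1, 660.5 with GSK2801, 454 with both and 319 with DMSO. CDKN1C in MDAMB231 was at 100.4 with JQ1, 87.7 with GSK2801, 72.7 with both and 115 with DMSO. CDKN1C in HCC1806 was at 25.1 with JQ1, 29.3 with GSK2801, 34.1 with both and 39.5 with DMSO. The 3 lines did not overlap, with SUM159 highest and HCC1806 lowest, and within MDAMB231 and HCC1806 DMSO was the highest library. JQ1 against DMSO gave −0.18 ± 0.31 (adjusted p = 0.704), and the lines differed in sign, at 0.29 in SUM159, −0.19 in MDAMB231 and −0.64 in HCC1806.

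Among the INK4 genes, CDKN2D (chr19:10566462-10569059, minus strand) encodes p19. CDKN2D in SUM159 was at 289.9 normalized reads with JQ1, 147 with GSK2801, 393 with both and 139 with DMSO. CDKN2D in MDAMB231 was at 1002 with JQ1, 725 with GSK2801, 954 with both and 720.4 with DMSO. CDKN2D in HCC1806 was at 979 with JQ1, 437 with GSK2801, 872 with both and 434 with DMSO. The libraries with JQ1 were above those without it in each line, while SUM159 lay below the other lines throughout. CDKN2D rose 1.87-fold with JQ1 against DMSO (log2 0.90 ± 0.21, adjusted p = 0.0173), 1.95-fold with the combination against DMSO (0.97 ± 0.21, adjusted p = 0.00829) and 1.91-fold with the combination against GSK2801 (0.93 ± 0.21, adjusted p = 0.0117). All 6 separate readings of JQ1 were higher, and those of MDAMB231 were the smallest, at 0.47 and 0.40 against 1.00 to 1.41 in the other lines. The call for JQ1 alone was lost without SUM159 (0.82, adjusted p = 0.0803), without HCC1806 (0.76, 0.189) and in a fit of the compared libraries alone (0.0645), within a range of 0.011 to 1 over 25 alternatives. Under the same 3 settings the combination did not pass either, against DMSO (adjusted p = 0.0872, 0.0954 and 0.0831, range 0.00624 to 0.833) or against GSK2801 (0.1, 0.121 and 0.101, range 0.00878 to 0.958). Single libraries mattered as well. The call for JQ1 alone was lost without the DMSO or the JQ1 library of SUM159 (0.0663 and 0.05) or of HCC1806 (0.0658 and 0.0832). That of the combination against GSK2801 was lost without the GSK2801 library of HCC1806 (0.0531).

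CDKN2C (chr1:50960745-50974633, plus strand) encodes p18. CDKN2C in SUM159 was at 1236 normalized reads with JQ1, 1391 with GSK2801, 1106 with both and 1598 with DMSO. CDKN2C in MDAMB231 was at 563 with JQ1, 931 with GSK2801, 412 with both and 1069 with DMSO. CDKN2C in HCC1806 was at 527 with JQ1, 371 with GSK2801, 449.9 with both and 414 with DMSO. JQ1 libraries were thus the lower pair in SUM159 and MDAMB231 and the higher pair in HCC1806. No mean change passed: −0.32 ± 0.28 with JQ1 against DMSO (adjusted p = 0.443), −0.60 ± 0.28 with the combination against DMSO (0.128) and −0.41 ± 0.28 with the combination against GSK2801 (0.299).

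CDKN2B (chr9:22002903-22009363, minus strand) encodes p15, which is known as a target of TGF-beta signalling. CDKN2B in SUM159 was at 8.5 normalized reads with JQ1, 17.5 with GSK2801, 7.6 with both and 38.7 with DMSO, from about 8, 20, 8 and 33 estimated reads. It was listed at 0 in all 8 libraries of MDAMB231 and HCC1806, so its mean fell short of 10 and it was not tested. The DMSO library of SUM159 was the highest, on few reads. Its neighbours on chromosome 9 were read in the same way. MTAP, the gene of methylthioadenosine phosphorylase, was at 1234 to 1459 in HCC1806 and at 1.1 or less in SUM159 and MDAMB231. CDKN2A, the gene of the fourth INK4 protein, was at 1.1 with JQ1, 4.4 with GSK2801, 0 with both and 18.7 with DMSO in SUM159, and listed at 0 in both other lines. HCC1806 therefore gave reads from MTAP and none from CDKN2B or CDKN2A. It also gave a few from the neighbour CDKN2B-AS1, at 6.8 with JQ1, 7.0 with GSK2801, 4.3 with both and 4.3 with DMSO. DMRTA1, another neighbour, was there at 4.3 with both inhibitors and 2.1 with DMSO, and at 0 in the remaining libraries of HCC1806. In MDAMB231 CDKN2B-AS1 and DMRTA1 were at 0, and in SUM159 they were above 0 only with GSK2801, at 0.9 and 2.6.

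CCND1 (chr11:69641087-69654474, plus strand) encodes cyclin D1. CCND1 in SUM159 was at 24404 normalized reads with JQ1, 18100.2 with GSK2801, 26297 with both and 16598 with DMSO. CCND1 in MDAMB231 was at 49615 with JQ1, 18117 with GSK2801, 57188 with both and 19634 with DMSO. CCND1 in HCC1806 was at 12758 with JQ1, 12369.6 with GSK2801, 15019 with both and 15022 with DMSO. JQ1 libraries stood far above the others in MDAMB231 and above them in SUM159, whereas in HCC1806 those with and without JQ1 overlapped. The mean changes did not pass, at 0.55 ± 0.30 with JQ1 against DMSO (adjusted p = 0.218), 0.74 ± 0.30 with the combination against DMSO (0.0896) and 0.83 ± 0.30 with the combination against GSK2801 (0.0697). Of the 6 separate readings of JQ1, 5 were higher.

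CCND3 (chr6:41934933-42050357, minus strand) encodes cyclin D3. CCND3 in SUM159 was at 4685 normalized reads with JQ1, 4549 with GSK2801, 5047 with both and 4084 with DMSO. CCND3 in MDAMB231 was at 5028 with JQ1, 3843 with GSK2801, 5591 with both and 3784 with DMSO. CCND3 in HCC1806 was at 784 with JQ1, 654 with GSK2801, 903 with both and 889.7 with DMSO. The combination was the highest library of each line, and all HCC1806 values lay below those of the other lines. The fitted changes were 0.14 ± 0.13 with JQ1 against DMSO (adjusted p = 0.467), 0.30 ± 0.13 with the combination against DMSO (0.111) and 0.39 ± 0.13 with the combination against GSK2801 (0.0556). The last of these passed after median-ratio rescaling (0.0353) and quantile normalization (0.0428), within a range of 0.0252 to 1 over its alternatives. The remaining D-type cyclin gene, CCND2, is given because its levels were seen to differ: it was at 9.4 to 31.6 in SUM159, 739 to 1212 in MDAMB231 and 9899 to 20983 in HCC1806. With JQ1 it was at 12.7 in SUM159, 739 in MDAMB231 and 9899 in HCC1806, against 31.6, 795 and 20983 with DMSO. The mean of its 2 separate readings of JQ1 was log2 −1.34 in SUM159, 0.09 in MDAMB231 and −0.82 in HCC1806. No D-type cyclin passed in limma in these 3 comparisons with the values as deposited, and 1, 1 and 2 of the 3 genes had an unadjusted p below 0.05. The 1 gene with JQ1 against DMSO was CCND2, which was lower with JQ1.

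CDK6 (chr7:92604921-92836594, minus strand) encodes one of the partner kinases of cyclin D. CDK6 in SUM159 was at 2087 normalized reads with JQ1, 2869 with GSK2801, 1280.3 with both and 3526 with DMSO. CDK6 in MDAMB231 was at 3043 with JQ1, 4106 with GSK2801, 3393 with both and 4901 with DMSO. CDK6 in HCC1806 was at 1281 with JQ1, 1802 with GSK2801, 1150.5 with both and 2029 with DMSO. DMSO was the highest library in each line, and both libraries with JQ1 were below both without it. CDK6 fell by 0.70 ± 0.17 on the log2 scale with JQ1 against DMSO, or 1.63-fold (adjusted p = 0.0181), and by 0.94 ± 0.17, or 1.91-fold, with the combination against DMSO (0.0034). Against GSK2801 the combination lowered it 1.62-fold (−0.70 ± 0.17, adjusted p = 0.015). All 6 separate readings of JQ1 were lower, as they were for 22.6% of all genes. The call for JQ1 alone was lost without MDAMB231 (−0.71, adjusted p = 0.0578) and without HCC1806 (−0.72, 0.155), and over 25 alternatives the adjusted p was 0.00391 to 1. Without HCC1806 and in a fit of the compared libraries alone, the combination did not pass against DMSO (0.0588 and 0.0579, range 0.00169 to 0.616) or against GSK2801 (0.134 and 0.113, range 0.00496 to 1), and without SUM159 its change against GSK2801 was −0.46 (0.0647). The call for JQ1 alone was also lost without the DMSO library of SUM159 (0.0718) or the JQ1 library of MDAMB231 (0.0771). So it was without the DMSO or the JQ1 library of HCC1806 (0.0505 and 0.0701). The call against GSK2801 was lost without the GSK2801 library of SUM159 or of HCC1806 (0.0581 and 0.0554).

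CDK4 (chr12:57747727-57756013, minus strand) encodes the other kinase that D-type cyclins activate. CDK4 in SUM159 was at 3518 normalized reads with JQ1, 3579 with GSK2801, 3074 with both and 3579 with DMSO. CDK4 in MDAMB231 was at 3169 with JQ1, 4738 with GSK2801, 3192 with both and 5007 with DMSO. CDK4 in HCC1806 was at 3069 with JQ1, 3616 with GSK2801, 2701 with both and 4135 with DMSO. The libraries with JQ1 were the lower pair in all 3 lines, by little in SUM159. CDK4 fell 1.41-fold with the combination against DMSO (log2 −0.49 ± 0.12, adjusted p = 0.0149) and 1.32-fold with the combination against GSK2801 (−0.40 ± 0.12, adjusted p = 0.0388). With JQ1 against DMSO it gave −0.37 ± 0.12, which did not pass (0.0611) but did without SUM159 (−0.54, 0.0468), within a range of 0.04 to 1. The combination did not pass against DMSO without MDAMB231 (0.0671), without HCC1806 (0.154), without the DMSO library of either line (0.0682 and 0.0601), without the combination library of HCC1806 (0.0516) or in the compared libraries alone (0.113), within a range of 0.0126 to 1. The call against GSK2801 was lost without MDAMB231 (0.138), without HCC1806 (0.205), with no filter on low values (0.054), after median-ratio rescaling (−0.34, 0.0913) and with no variance trend (0.0668), within a range of 0.0317 to 1. It was also lost without any single GSK2801 or combination library (0.0514 to 0.148) and in the compared libraries alone (0.163). Leaving out the DMSO or the JQ1 library of HCC1806, which are outside that comparison, lost it as well (0.0502 and 0.0573).

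**Figure D2:**
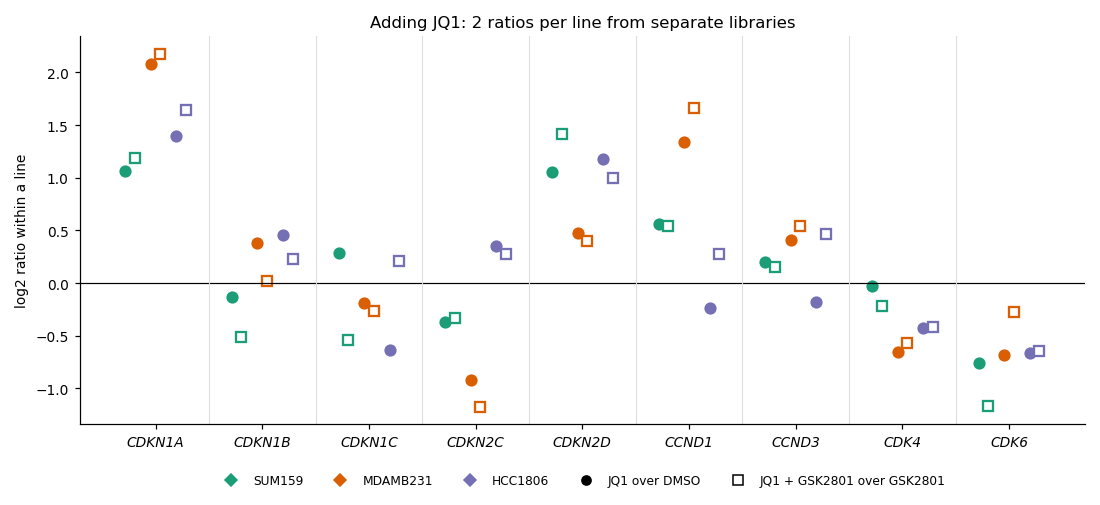
Log2 ratios for JQ1 within each line (vertical axis) for the 9 tested genes: filled circles are JQ1 over DMSO, open squares JQ1 + GSK2801 over GSK2801, coloured by line, with no library shared between the 2 symbols of a line. All 6 points lie above 0 for CDKN1A and CDKN2D and below 0 for CDK4 and CDK6, and the points of CDKN2C lie on either side of 0 by line.

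**Figure D3:**
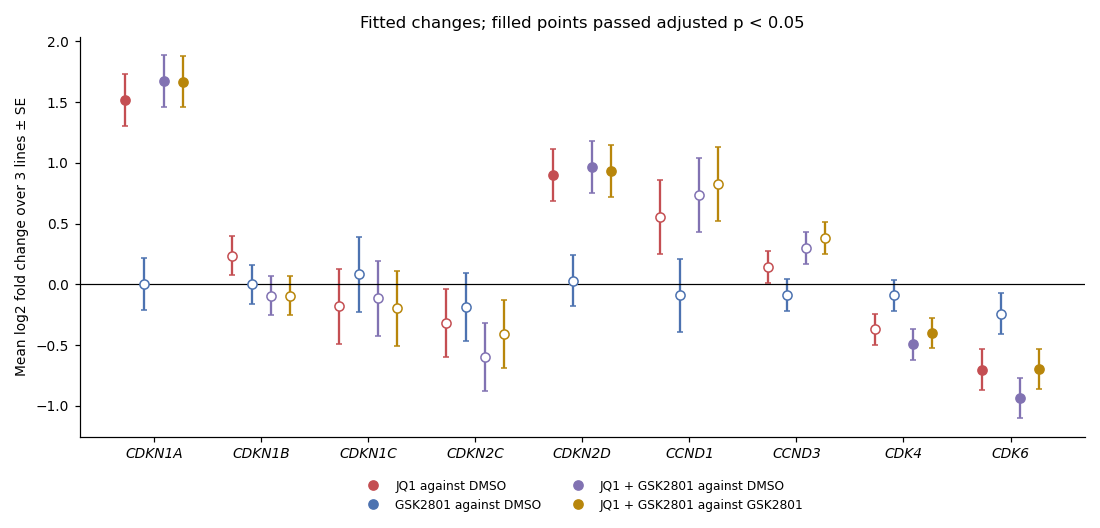
Mean log2 fold changes over 3 lines with their SE (bars) for the 9 tested genes in 4 comparisons. Filled points passed an adjusted p of 0.05: CDKN1A, CDKN2D and CDK6 in all 3 comparisons that add JQ1, CDK4 in the 2 with the combination, and none with GSK2801 against DMSO.

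GSK2801 moved no tested member past the threshold in the mean over lines. With GSK2801 against DMSO limma called 0 of 14232 genes (0%), with 161 at an unadjusted p below 0.05, and 0 of 9 members, with 0 of them at an unadjusted p below 0.05. The member with the largest change was CDK6, at −0.24 ± 0.17 (adjusted p = 1), lower in 3 of 3 lines. On top of JQ1, GSK2801 again gave 0 genes called (0%), with 1031 at an unadjusted p below 0.05. The largest member change there was that of CDKN1B, at −0.33 ± 0.16 (adjusted p = 0.723). The departure from additivity, which asks whether the combination differs from the sum of the single effects on the log2 scale, likewise gave 0 genes (0%), with 171 at an unadjusted p below 0.05, and for CDKN1B it was −0.33 ± 0.23 (adjusted p = 1). CDKN2C was lower in all 6 separate readings of GSK2801, by log2 −0.16 to −0.45, as were 7.05% of all genes. No other member had the same sign in all 6, and none was higher in all 6, as 8.03% of all genes were. The readings of CDKN1C ranged most, at 1.05 in SUM159 against −0.38 in MDAMB231 and −0.42 in HCC1806 for GSK2801 over DMSO.

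**Figure D4:**
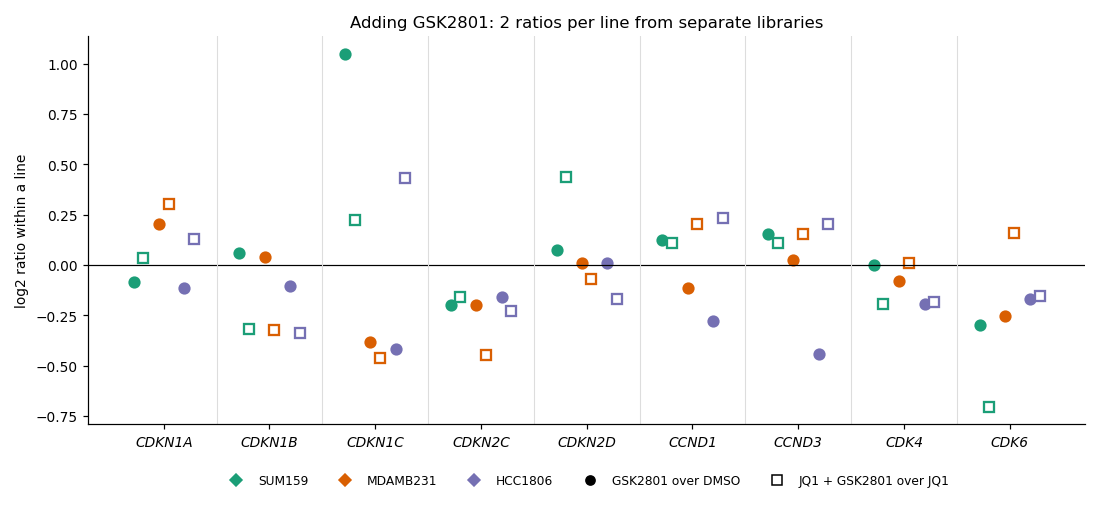
Log2 ratios for GSK2801 within each line (vertical axis) for the 9 tested genes: filled circles are GSK2801 over DMSO, open squares JQ1 + GSK2801 over JQ1, coloured by line. Most points lie within 0.5 of 0, all 6 of CDKN2C lie below it, and the open squares of CDKN1B lie together near −0.33.

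The JQ1 effects on CCND1 and CDKN2C in HCC1806 differed from the mean of those in the other lines, which also lay apart from each other. The JQ1 effect of a line is here the mean of its 2 separate readings, and HCC1806 was set against the mean of SUM159 and MDAMB231. Its p measures the departure from additivity within lines, and not the spread between lines or cultures. The JQ1 effect on CCND1 was 0.02 in HCC1806, 0.55 in SUM159 and 1.5 in MDAMB231, a difference of −1.0 ± 0.17 (limma adjusted p = 0.00681). That on CDKN2C was 0.31 in HCC1806, −0.35 in SUM159 and −1.05 in MDAMB231, a difference of 1.01 ± 0.13 (adjusted p = 0.00274). These were 2 of 9 members, 1 higher and 1 lower, where 25.1% of all genes passed, 14.5% higher and 10.6% lower. The members' share is close to that of all genes here too. Of all genes that passed, 42.4% were lower as deposited, 54.8% after median-ratio rescaling and 48.9% after quantile normalization. With SUM159 as the only other line, CCND1 differed by −0.53 and no longer passed (adjusted p = 0.0905), and CDKN2C differed by 0.66 (0.0261). These are among the 5 alternatives to the test against both lines, whose adjusted p ranged over 0.00387 to 0.0905 for CCND1 and 0.00154 to 0.0261 for CDKN2C. For both genes SUM159 lay between HCC1806 and MDAMB231. The JQ1 effect on CDKN1A was 1.52 in HCC1806, 1.13 in SUM159 and 2.13 in MDAMB231, so that HCC1806 lay between the others, with a difference of −0.11 ± 0.11 (adjusted p = 0.496). For CDKN1B the difference was 0.41 ± 0.16 and did not pass (adjusted p = 0.11). MYC, which represses several CDK inhibitor genes and activates CDK4, was at 2389 with JQ1, 8906 with GSK2801, 2600 with both and 7428 with DMSO in HCC1806. Its JQ1 effect was −1.71 in HCC1806, −0.12 in SUM159 and −0.01 in MDAMB231, a difference of −1.64 ± 0.14 (adjusted p = 0.000767). MYC is 1 of 16 listed transcription regulators of the inhibitor genes, of which 2 passed higher and 2 lower here. KLF6, also on that list, differed more, by −1.97 ± 0.17 (adjusted p = 0.000763). The difference of CDK4 was −0.06 ± 0.10 (adjusted p = 0.69). The part of MYC in the changes of the members was not tested.

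The genes that act with the members were counted in lists by role. Of all genes, 9.52% rose and 13.1% fell past the threshold with JQ1 against DMSO. With the combination against DMSO, 15.0% rose and 19.8% fell. No list was tested as a set. Among 5 genes of cyclins E and A, CDK2 and their activating phosphatase, 1 fell and 0 rose with JQ1 against DMSO, and 3 fell and 0 rose with the combination against DMSO, with medians of −0.32 and −0.62. CDC25A, the phosphatase that activates CDK2, fell in both (−1.18 ± 0.35, adjusted p = 0.0424, and −1.43 ± 0.35, adjusted p = 0.0139). CCNA2, the gene of cyclin A2, fell with the combination (−1.28 ± 0.31, adjusted p = 0.0126), as did CDK2 (−0.62 ± 0.19, adjusted p = 0.0289). Of the 3 genes of the CDK-activating kinase, 1 fell with JQ1, its cyclin subunit CCNH (−0.49 ± 0.12, adjusted p = 0.0207), and 0 passed with the combination, with 0 at an unadjusted p below 0.05.

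Of the 3 RB family genes, 0 passed in either comparison, and 0 had an unadjusted p below 0.05 in limma. Among 10 genes of E2F and DP factors, 1 rose and 2 fell with JQ1, and 0 rose and 4 fell with the combination, with medians of −0.41 and −0.39. Over all genes, 9.52% rose and 13.1% fell with JQ1, and 15.0% rose and 19.8% fell with the combination. E2F2, an activating E2F, fell most (−1.70 ± 0.30, adjusted p = 0.00601, and −2.49 ± 0.30, adjusted p = 0.000599). In the combination libraries E2F2 was at 192 in SUM159, 26 in MDAMB231 and 150.3 in HCC1806, against 594, 275 and 854 with DMSO. E2F8, a repressive E2F, fell with the combination (−2.27 ± 0.51, adjusted p = 0.0096), and E2F4, which acts with the RB relatives in quiescent cells, fell in both comparisons (−0.59 ± 0.11 and −0.73 ± 0.11).

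Among 12 genes of ubiquitin ligases that mark p27, p21 or cyclins D and E for degradation, 1 rose and 1 fell with JQ1, and 3 rose and 2 fell with the combination. SKP1, the adaptor shared by SCF ligases, rose in both (0.50 ± 0.09, adjusted p = 0.00683, and 0.69 ± 0.09, adjusted p = 0.000928). SKP2, which recognises p27, fell with the combination (−1.06 ± 0.26, adjusted p = 0.0124), and FBXO4, reported to recognise cyclin D1, fell in both (−0.93 ± 0.21 and −1.61 ± 0.21). Among 16 transcription regulators of the inhibitor genes, 0 rose and 2 fell with JQ1, and 1 rose and 3 fell with the combination. For both lists, the shares of all genes that rose and fell were 9.52% and 13.1% with JQ1. With the combination they were 15.0% and 19.8%. KLF4, a Krüppel-like factor, fell with JQ1 (−0.66 ± 0.20, adjusted p = 0.042). EZH2, which silences INK4 genes as part of PRC2, fell with the combination (−1.02 ± 0.29, adjusted p = 0.0259).

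Downstream of E2F, 1 of 16 S-phase genes fell with JQ1, where 13.1% of all genes did. With the combination 5 fell, where 19.8% of all genes did. In either comparison 0 rose, and the medians were −0.30 and −0.60. MCM5, a subunit of the replicative helicase, fell in both (−0.85 ± 0.21, adjusted p = 0.0213, and −1.52 ± 0.21, adjusted p = 0.0011), and GINS2 and CDC45, its partners, fell with the combination (−1.49 ± 0.37 and −1.46 ± 0.39). In the comparison of HCC1806 with the other lines, 8 of these 16 genes had a higher JQ1 effect in HCC1806 than the mean of the others, where 14.5% of all genes did, and 0 a lower one. MCM3 was among them, with JQ1 effects of 0.05 in HCC1806, −0.20 in SUM159 and −1.47 in MDAMB231. RRM2, a subunit of ribonucleotide reductase, had effects of 0.41 in HCC1806, 0.50 in SUM159 and −1.44 in MDAMB231. For RRM2, as for PCNA (0.29 in HCC1806 and 0.31 in SUM159), the effect was lower in HCC1806 than in SUM159. The most negative effect of both genes was in MDAMB231, where the JQ1 effects on CCND1 and CDKN1A were largest. Of 6 G2 and mitotic genes, 0 passed in limma with JQ1, with 1 at an unadjusted p below 0.05, and 1 fell with the combination.

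**Figure D5:**
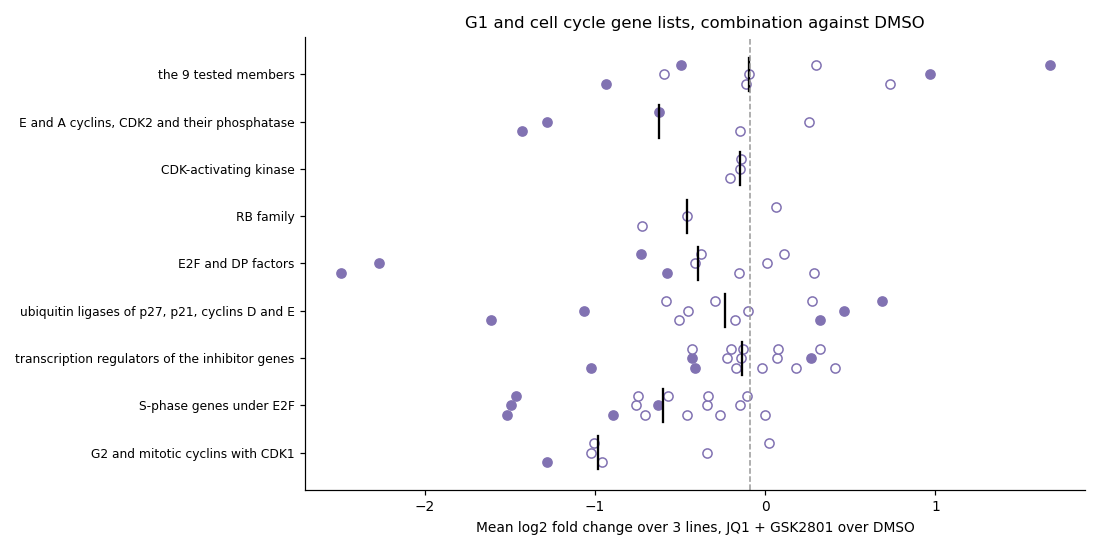
Mean log2 fold changes over 3 lines for JQ1 + GSK2801 over DMSO (horizontal axis), with 1 point per tested gene, filled where the adjusted p was below 0.05, and a black bar at each list's median. The dashed line is the median of all tested genes, −0.09. The 9 members spread on both sides of it, and the medians of the S-phase and mitotic lists lie to its left.

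For each tested member, the 3 genes most like it were found by Pearson's r of log2 values over the 12 libraries after subtraction of each line's mean. These r values describe libraries that share treatments, and each is the highest of 14231 genes. CDKN1A was most like FAM210B (r = 0.993), TUBA1A (0.992) and REPS2 (0.991). CDK6 was most like C1D (0.980) and CDK4 most like METTL13 (0.988), and NAGK (0.990) was among the 3 genes most like CDKN2D. CCND1 was most like S100A6 (0.978) and CDKN2C most like BIRC2 (0.976). The closest genes were less alike for CDKN1B (ARFGEF1, 0.955), CCND3 (U2AF2, 0.943) and CDKN1C (FAM83A, 0.845).

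The order of the lines, taken over the 4 libraries of each, differed between members. MDAMB231 had the highest mean for CDKN1A, CDKN1B, CDKN2D, CCND1, CDK4 and CDK6, and SUM159 for CDKN1C, CDKN2B, CDKN2C and CCND3. The lead did not overlap the next line's values for CDKN1C and CDKN2C, or for CDKN2B, whose next line was at 0. It overlapped them for the other members, as for CDK4, with line means of 4027 in MDAMB231, 3437 in SUM159 and 3380.2 in HCC1806. HCC1806 was lowest, with no overlap, for CDKN1C, CCND1 and CCND3. The share of all genes with such gaps between lines was not counted, so the gaps are not read as particular to the members.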

How the data were processed

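Estimated reads per gene were deposited as normalized signal, 1 value per gene symbol in each of 12 libraries. Per the submitters' processing notes, the authors used STAR 2.4, Salmon 0.60 and hg38, and the annotation and scaling step are not given in the sources used here. The labels name different library kits, so strand use is unclear, and genes that overlap others may share reads. The scaling was checked on the values: the upper quartile of values above 0 was 1663.93 in each library. Between 67.15% and 69.22% of values were whole multiples of 1 read's worth (tolerance 0.02), so no count model was used. Of 28539 entries, 27 were symbols turned into dates that held 0.168% to 0.218% of a library's signal, and these were not used.

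The plan allowed for a count test, but the files hold scaled values, so log2(value + 1) was fitted with limma 3.58.1 in R 4.3.3, with treatment, line as block and a variance trend (6 residual and 3.02 prior degrees of freedom). A second model fitted the JQ1 and GSK2801 effects separately for each line (3 residual, 4.48 prior). Replicate numbers pair libraries by line, per the labels. Log2 correlations were 0.935 to 0.993 within lines and 0.685 to 0.810 between them. Both models were run on simulated data with independent noise in each library and a fixed size of change. Noise shared by the JQ1 libraries of a line was not simulated, so that run cannot show whether the p-values are too small. The members and lists were chosen with earlier results of these data known. The text names all members and at most 4 genes of each list that passed and changed most, plus genes at 0 throughout a line. Some genes that this rule names are not reported here. Gene positions are from GENCODE v29 on hg38, and promoters from RefSeq. Alternatives varied the pseudocount, filter, scaling, block, trend, fold threshold and libraries.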

Additional observations from a re-analysis of the deposited data

Results flagged for a closer look

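The JQ1 effect in HCC1806 minus the mean of those in SUM159 and MDAMB231 was 1.01 for CDKN2C and −1.0 for CCND1, both past the threshold in the test of the difference itself. Of all genes, 25.1% passed that test, and its p does not measure the spread between lines or cultures. With SUM159 as the only other line, the difference of CCND1 was −0.53 and did not pass.

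For CDKN1B, both JQ1 ratios were below 0 in SUM159 and above 0 in the other lines. The mean of the 2 ratios was higher by log2 0.53 in MDAMB231 and by 0.67 in HCC1806 than in SUM159. The second of these did not pass in the test of HCC1806 against SUM159 alone (limma adjusted p = 0.0516), and the first was not tested. That test is 1 of the 5 alternatives to the limma test of HCC1806 against the mean of both other lines (adjusted p = 0.11, range 0.0516 to 0.572). For CDKN1C, both GSK2801 ratios were above 0 in SUM159 and below 0 in MDAMB231, a difference of log2 1.06 that was not tested. No group had the 4 libraries that a check for outlying samples needs.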

How the results depend on the processing

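With no replicate block, 0 members passed with JQ1 against DMSO, 0 with the combination against DMSO and 0 with the combination against GSK2801, against 3, 4 and 4 with the block, which pairs libraries by line. In a test against a change of 1.5-fold these counts were 0, 1 and 1, and in fits of the compared libraries alone 1 member passed in each comparison with the combination. With 1 line or 1 library left out, 0 to 3, 1 to 5 and 1 to 4 members passed. The lowest counts, 0, 1 and 1, came without HCC1806. With JQ1 against DMSO, 1 passed without the JQ1 or the DMSO library of HCC1806. With the combination against GSK2801, 1 passed without its GSK2801 library and 2 without SUM159. The difference of HCC1806 from the other lines, with 1 of those left out (chosen after seeing the data), gave 1 to 4 members against 2. All genes called were 3223, 4959 and 4132, and with the compared libraries alone 755, 1012 and 300. With no block they were 0, 41 and 3. With a line or library left out they ranged over 402 to 3726, 2666 to 4784 and 1647 to 3954, so the share of all genes set beside the members' counts moves as well.

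Of the reported log2 changes, 2 turned sign, both uncalled in the main fit. CDKN1C with JQ1 against DMSO was −0.18 and ranged between −0.52 and 0.049 with a line or library left out. CDKN1A in HCC1806 against the other lines was −0.11 and ranged between −0.60 and 0.39. The −0.60 came with MDAMB231 as the only other line, where the difference passed the threshold, and the 0.39 with SUM159. Of the comparisons of a reported log2 change with another setting that left nothing out, 239 kept their side of the threshold, 30 lost it and 2 passed it anew. Depth limits CDKN2B, with at most 33 estimated reads.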
